A study of Homo sapiens with 6 samples.

Results

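N6-methyladenosine (m6A) peaks were compared between U-251 MG cells with a hairpin against TRA2A (shTRA2A) and U-251 MG cells with a control hairpin (shNC). U-251 MG is a human glioblastoma line. Each condition had 1 immunoprecipitated (IP) library and 1 Input library, made by methylated RNA immunoprecipitation sequencing (meRIP-seq), in which RNA fragments bound by an anti-m6A antibody are sequenced beside the starting RNA. The members are all peaks of both lists, 9206 in shNC and 2736 in shTRA2A, so 11942 of the 17375 peaks in the 3 lists of the series. A control peak is called found where an shTRA2A peak of the same strand covers at least 1 of its bases, and an shTRA2A peak is called on a control peak by the same rule. With 1 library pair per condition nothing here has a replicate check, no test between conditions was made, and every difference is one between these lists.

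All libraries came from fragmented total RNA of the same line. The sources used here do not say whether the knockdown cells are a clone or a pool, how far the hairpin lowered TRA2A, or how deep each library was read. The marker genes set for neurons, oligodendrocytes, microglia, endothelium and blood had 0 peaks in either list, while 4 of 7 glioma and astroglial markers had a control peak and 3 of these an shTRA2A peak. A peak list shows that a transcript was called and carries no transcript level. In bulk RNA, a transcript present in fewer cells and one with fewer copies per cell cannot be told apart.

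As background, m6A is placed on messenger RNA by a nuclear writer complex with METTL3 and METTL14 at its core, which favours adenosines in a short sequence context with GGAC among its common forms. In most transcripts the mark is densest in long internal exons and around the stop codon and early 3′ end. Demethylases remove it, and reader proteins tie it to splicing, decay and translation. TRA2A is a nuclear RNA-binding protein with arginine and serine rich domains that acts on exon inclusion, and TRA2B is its close relative.

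The sequences that the lists reach through small RNA annotation are shown first, because a whole microRNA cluster lay in a span called with the same limits in both conditions. On GRCh38 the span was 19:51689503-51693434, plus strand, 3932 nt, inside SPACA6. Its outer limits hold the hairpins of MIR99B, MIRLET7E and MIR125A, microRNAs known for roles in proliferation and differentiation. Hairpins were matched to the outer limits of peaks, and wide spans may cross introns. Whether a hairpin lies in the called part of such a span was not read. The score of the span was 38.0 in shNC, rank 555 of 9206, and 18.7 in shTRA2A, rank 44 of 2736. The scores are the authors' own, of unstated scale, and are used here to rank peaks within a list. The mature sequences come from RefSeq (GRCh38.p14), with the seed, bases 2 to 8, in capitals.
hsa-miR-99b-5p: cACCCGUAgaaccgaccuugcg
hsa-let-7e-5p: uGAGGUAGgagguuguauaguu
hsa-miR-125a-5p: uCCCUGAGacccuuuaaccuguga
The seeds of these 3 differ. Of 1562 hairpins in the RefSeq table, 10 were overlapped at least in part by a control peak, 7 by an shTRA2A peak and 4 by both. Among the control peaks without a counterpart was 5:88666713-88666912, minus strand, of 200 nt with a score of 23.5. It covers part of the MIR9-2 hairpin in MIR9-2HG, the host of a microRNA known from neural progenitors. The 3p arm, at 5:88666866-88666887, lies wholly inside the peak and is shown. The seed of the 5p arm lies outside it.
hsa-miR-9-3p: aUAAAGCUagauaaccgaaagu
In the shTRA2A list alone, the hairpins of MIR6883, MIR6509 and MIR455 lay within the outer limits of wide peaks. These were of 2231, 1136 and 3403 nt with scores of 8.34, 7.56 and 7.54.

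Gene starts were the other place where letters under a peak could be read. Regular peaks (1 block, a multiple of 25 nt wide, at most 1000 nt) covered some of the first 50 transcribed bases of 45 RefSeq starts in shNC and 19 in shTRA2A, with 3 starts in both. The motif GGAC, searched on the transcript strand, was in the first 50 bases of 11 of the 45 (24.4%), 4 of the 19 (21.1%) and 18.9% of all 34943 starts. Counts this small leave the shares close to that of all starts. Stretches of up to 30 bases under a peak are shown for ZBED6, a start in both lists, for RIPOR1 and TNPO2, starts with an shTRA2A peak alone, and for MEF2C and MTOR, starts with a control peak alone. GGAC is in capitals where present.
ZBED6: atgagtgtatgtactctaagtgtaccagtt
RIPOR1: gaagccgagccagagccgctgggagcgagc
TNPO2: gccagtgGGACtgctggggtc
MEF2C: gaacgaatgcaggaatttgggaactgagct
MTOR: aGGACagcggggaaggcgggcggtggggca
ZBED6, an intronless transcription factor gene, had a control peak of score 42.9 at 1:203797229-203797728 and an shTRA2A peak of score 11.4 at 1:203797479-203797728, both on the plus strand. The MTOR peak, at the start of a growth kinase gene, lay at 1:11262464-11262538 on the minus strand with a score of 8.71. RIPOR1 had an shTRA2A peak of score 12.3 at 16:67537460-67537534 on the plus strand.

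Most control peaks had no counterpart after TRA2A was targeted. Of 9206 control peaks 882 were found, 9.58% (95% interval 8.99 to 10.2%), and of 2736 shTRA2A peaks 926 were on a control peak, 33.8% (32.1 to 35.7%). These shares depend on the lengths of the lists. With the control list limited to its best 2736 peaks, 606 of them, 22.1%, were found, and 24.2% of shTRA2A peaks were on one. By gene, the lists shared 1223 of 4360 control peak genes, 28.1% (26.7 to 29.4%), which is 64.6% (62.4 to 66.7%) of the 1894 genes with an shTRA2A peak. At equal list length these became 42.7% and 38.0%, with 719 genes shared. Sharing a gene did not always mean sharing a site. In 674 of the 1223 shared genes, 55.1%, a control peak was found, and in the others the peaks lay at different positions. Genes with a control peak found made up 15.5% of all genes with a control peak. The intervals are exact Clopper-Pearson intervals, treat peaks or genes as independent and cover counting error alone.

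The share of control peaks found differed by their score and width. Spans over 1000 nt made up 25.1% of the shTRA2A list and 15.1% of the control list. Among the best 10% of control peaks by score 38.4% were found, among the next 10% 18.02%, and among the last 10% 1.09%. The share also differed by width, from 3.30% at 50 nt to 22.1% for widths over 300 and up to 500 nt. It differed by score within narrow and wide peaks alike. Among regular control peaks over 100 nt it fell from 37.0% in the best-scoring 20% to 2.12% in the last, and among those up to 100 nt from 13.04% to 0.582%. From the shTRA2A side, 60.6% of the best 10% were on a control peak and 15.7% of the ninth 10%, but 32.6% of the last 10%. Regular shTRA2A peaks were on a control peak in 40.5% of cases and the other, wider or off-grid spans in 20.7%. For control peaks it was the reverse, 8.52% of regular peaks and 13.8% of the others.

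**Figure D1:**
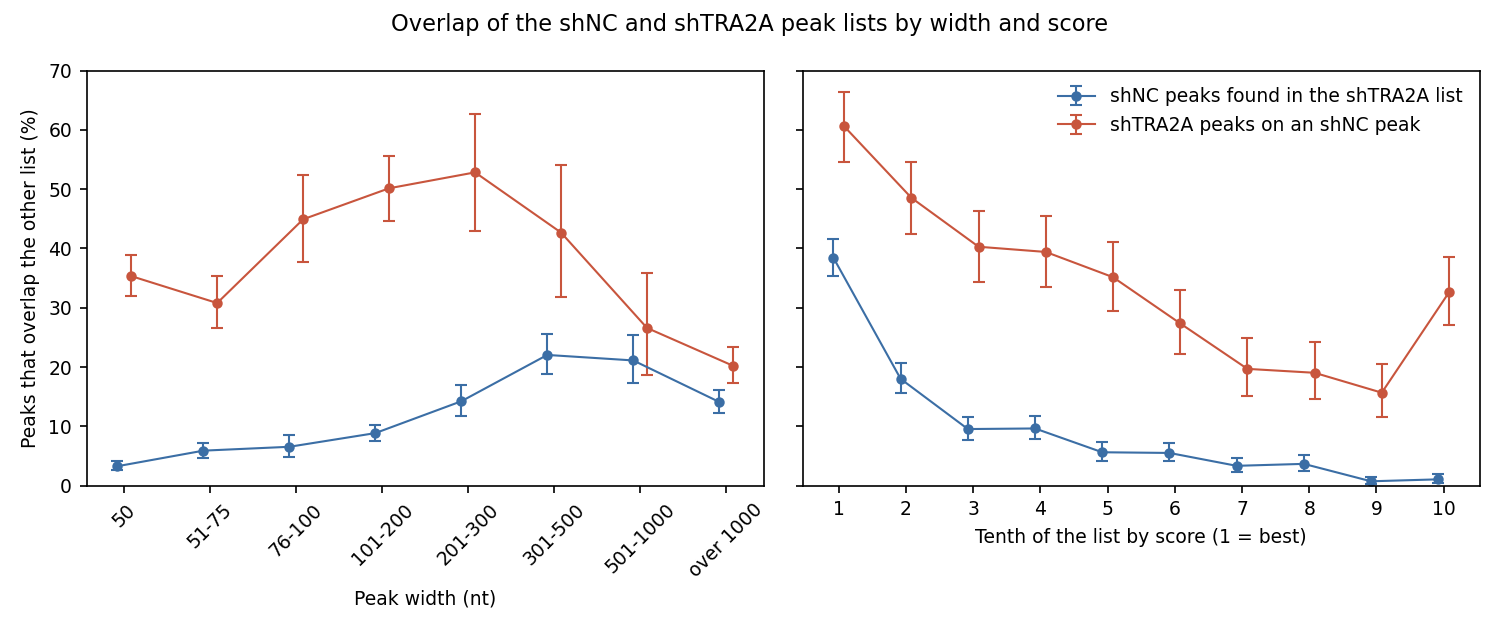
Share of peaks that overlap the other list (percent, with exact 95% intervals) by peak width in nt on the left and by score on the right, in steps of 10% of the list, for shNC peaks in blue and shTRA2A peaks in red. The shNC share drops from 38.4% in the best step to 1.09% in the last, and the shTRA2A share drops from 60.6% to 15.7% in the ninth and stands at 32.6% in the last.

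Where peaks met, the shTRA2A peak was mostly the narrower of the pair and lay inside the control peak. There were 957 overlapping pairs, 82 with identical limits, 558 with the shTRA2A peak inside the control peak, 121 the other way round and 196 staggered. Among the 651 pairs of regular peaks the median width was 200 nt in shNC and 75 nt in shTRA2A. Over all regular peaks, paired or not, the medians were 100 and 75 nt, so paired control peaks were wider than control peaks at large. The median ratio of shTRA2A to control width in these pairs was 0.50, and 43 pairs were identical. The midpoints were close, with a median distance of 37.5 nt and 59.4% within 50 nt. All 651 pairs lay on a common 25 nt grid. Better-ranked control peaks tended to pair with better-ranked shTRA2A peaks, with a Spearman rank correlation of 0.30 over the 651 pairs, a description in which pairs share genes and each rank comes from its own list. Few control peaks were split: 815 met 1 shTRA2A peak, 60 met 2, 6 met 3 and 1 met 4.

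**Figure D2:**
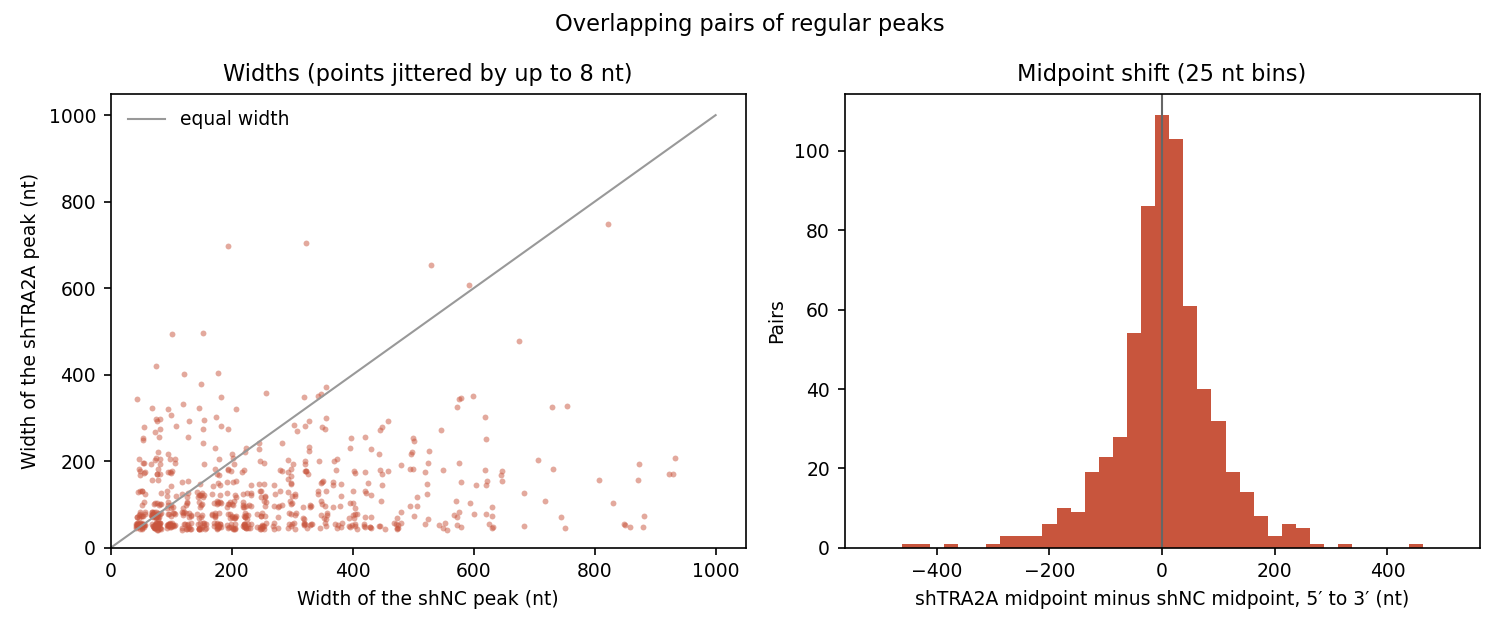
Overlapping pairs of regular peaks. The left panel sets the width of the shTRA2A peak against that of the shNC peak (nt, points jittered, line at equal width), and the right panel counts pairs by the shift of the shTRA2A midpoint from the shNC midpoint along the transcript strand (nt). Most points lie below the line, with median widths of 200 and 75 nt, and 59.4% of the shifts are within 50 nt.

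Some shTRA2A peaks missed a control peak by a short distance. Of 1085 regular shTRA2A peaks not on a control peak, 38 abutted one and 98 lay within 100 nt, and 261 in all, 24.1%, lay within 500 nt. A further 663 had no control peak of that strand within 5000 nt, though 623 of the 1085, 57.4%, lay in a gene with a control peak. Of the 8324 control peaks not found, 689, 8.28%, had an shTRA2A peak within 500 nt and 6895, 82.8%, had none within 5000 nt. Peaks that met the other list on the opposite strand alone were few, 34 in shNC and 13 in shTRA2A.

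Along the gene, shTRA2A peaks lay somewhat less towards the end. Over regular peaks in coding genes of known strand, the median position was 81.2% of the gene body in shNC and 75.8% in shTRA2A, and 47.9% and 40.1% of peaks lay in the last 5000 nt. The first 500 nt held 80 control peaks, 1.38%, and 46 shTRA2A peaks, 3.30%. Of the 80 start peaks 4 were found, and of the 46 start peaks of shTRA2A 5 were on a control peak, 10.9%, against 47.5% of shTRA2A peaks from 500 to 5000 nt before the end. These positions count introns, so they are not positions in the spliced transcript.

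The 12 regular pairs that ranked best in both lists were taken next, chosen by their ranks alone. The best pair was in PRPF38B, a splicing factor of the spliceosome's activation step. Its control peak 1:108699549-108700073 had a score of 124.6, rank 25, and its shTRA2A peak 1:108699424-108700073 a score of 44.5, rank 6, with the same end. PRP4K, a kinase that phosphorylates spliceosomal proteins, had a control peak at 6:4031684-4032258 (score 119.6, rank 30) that held 2 shTRA2A peaks, the stronger at 6:4031884-4032208 (score 18.7, rank 46). NSRP1, a speckle-related splicing regulator, paired a control peak of 675 nt at 17:30185095-30185769 (score 118.4) with an shTRA2A peak of 475 nt (score 19.9), and its 4 other control peaks were not found. In each of these 3 genes the control peak was among the 32 best of its list.

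The other pairs of that ranking came from varied genes. HMGN5, a nucleosome-binding protein, had a single control peak, X:81114624-81115148, with a score of 198.8, rank 5. That peak held shTRA2A peaks of 225 and 150 nt with scores of 18.7 and 17.97. SLC5A3, a myo-inositol transporter, had 6 control peaks, 3 of them found. Its best pair, 21:34097193-34097517 (score 61.2) against 34097168-34097517 (score 22.3), ended at the same base. PALM2AKAP2, whose product anchors protein kinase A, had 7 control peaks, 5 of them found, and its best pair started at the same base, 9:110168447. CCPG1, an endoplasmic reticulum autophagy receptor, shared 25 nt between peaks of 575 and 350 nt. The rest of the 12 were OGFRL1, SEMA3A (a secreted guidance cue), EID1, CHD9 (a chromatin remodeller) and USP1 (a deubiquitinase of DNA repair), with control scores from 69.8 to 121.3 and shTRA2A scores from 14.8 to 16.1.

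SREK1, an SR-related splicing regulator, held the strongest shTRA2A peak of the list. That peak, 5:66170141-66170929, had a score of 54.5, rank 1, and lay on the control peak 5:66170066-66170679 (score 98.6, rank 56). Of the 5 control peaks of SREK1 4 were found, and the fifth, 66178901-66179200, lay 100 nt from an shTRA2A peak. The wide spans of SREK1 reached 3851 nt in shNC and 2310 nt in shTRA2A. Off-grid spans like these may cross introns, so their width is no measure of methylated sequence. EIF5B, a translation initiation factor, had a best shTRA2A score of 52.3, with 2 of its 3 control peaks found and a best control score of 199.3. HNRNPA3, an RNA-binding protein of the hnRNP family, had a best shTRA2A score of 45.2 and a best control score of 39.0, with 2 of 3 control peaks found. EIF5B and HNRNPA3 were singled out after their values were seen.

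**Figure D3:**
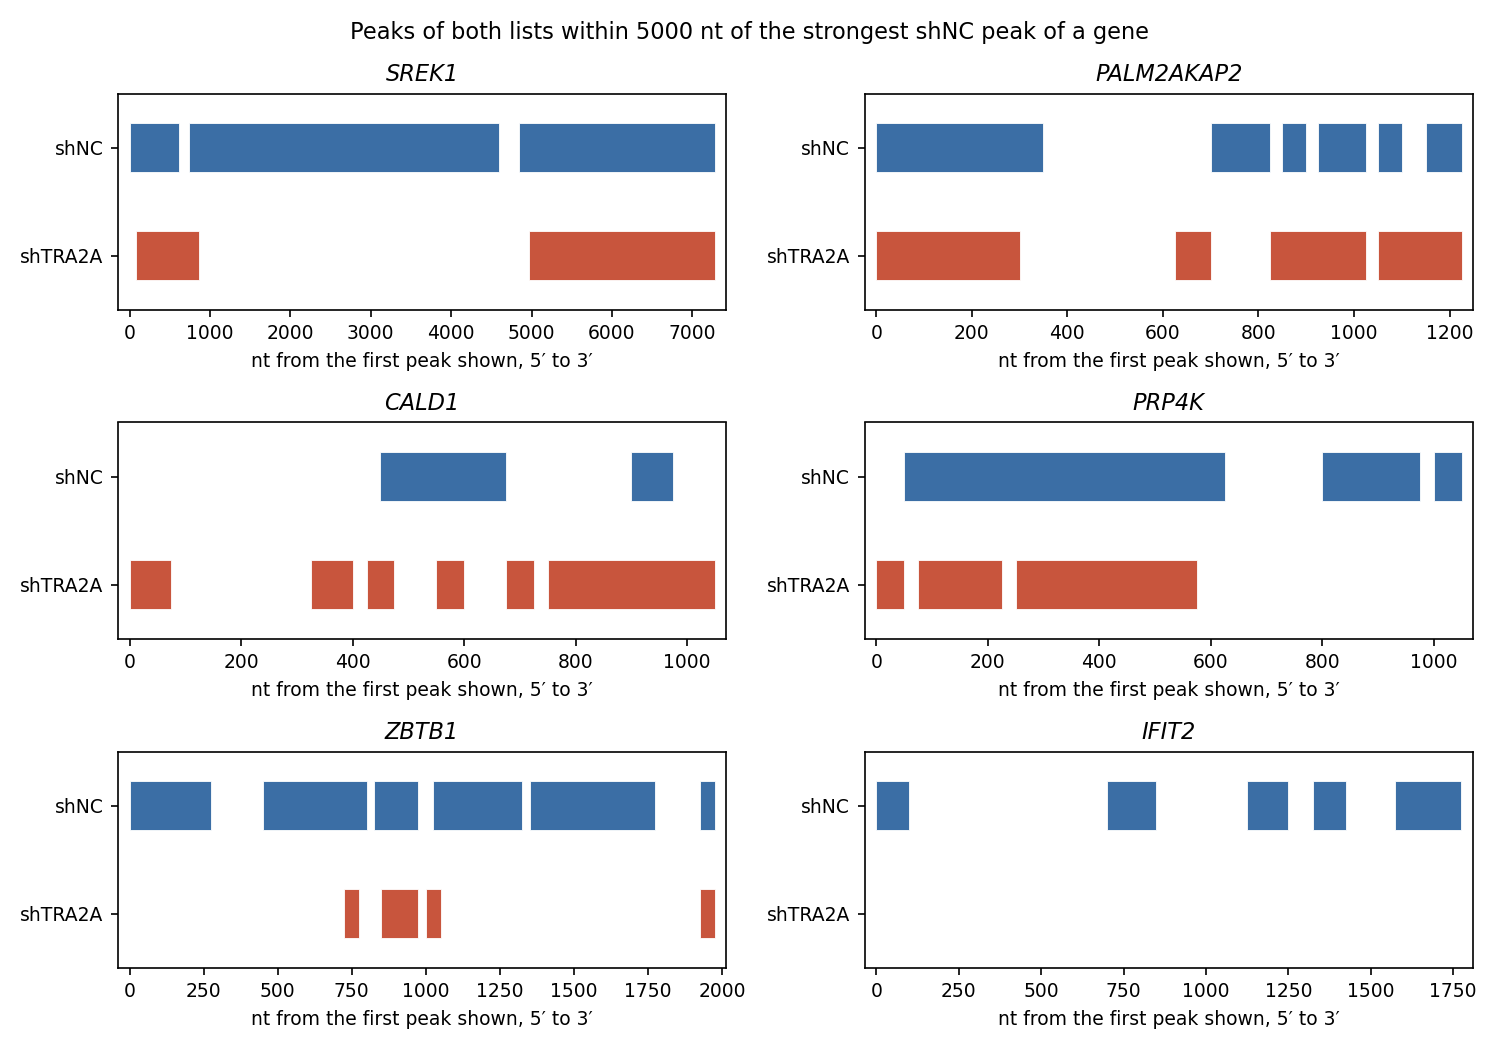
Peaks of shNC (blue) and shTRA2A (red) in 6 genes, drawn to scale in nt from the first peak shown, 5′ to 3′, within 5000 nt of the strongest shNC peak. In SREK1 and PALM2AKAP2 most shNC peaks meet an shTRA2A peak, in CALD1 the shTRA2A peaks are more numerous, in PRP4K they cover the first shNC peak, in ZBTB1 they are shorter, and IFIT2 has none.

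By gene, 4 patterns stood out, each chosen by the peak counts themselves, so the counts are a description. Genes with many control peaks and no shTRA2A peak were led by ZNF608, a zinc finger protein, with 13 control peaks. SAMD9, an interferon-induced antiviral restriction factor, ICE1, a subunit of a complex for small nuclear RNA transcription, and ZBTB38, a methyl-CpG binding repressor, had 12 each. KAT6A, a histone acetyltransferase, TLR4, the receptor for lipopolysaccharide, and PRR14L had 10 each. CEP350, MIA3, LCOR, SETD5 and CLMP had 9 each. Of the CLMP peaks 1, at 11:123193013-123193087, was on the plus strand and the others on the minus strand. No strand is given for CLMP, so not all 9 may belong to it. The peaks were not uniformly weak. SAMD9 scores ran from 15.8 to 89.3, with the best peak at 7:93103813-93104287, while those of ZNF608 ran from 8.82 to 24.9 and those of ICE1 from 8.42 to 31.6. Over all genes with over 10 control peaks, 19 of 23 had an shTRA2A peak, 82.6% (61.2 to 95.05%), against 19.4% (17.8 to 21.0%) of genes with 1.

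Genes with many control peaks found were FAT1, VCAN, MACF1, PALM2AKAP2, ZC3H13, SREK1, MEIS2 and ZBTB1. FAT1, an atypical cadherin, had 21 control and 8 shTRA2A peaks, and each of the 8 lay on a different control peak. VCAN, the matrix proteoglycan versican, had 24 control and 6 shTRA2A peaks, and 6 control peaks were found. All 6 shTRA2A peaks of VCAN lay between 5:83521784 and 5:83541237, and none met the 3 control peaks near 5:83580226-83581250. The strongest control peak of VCAN, 5:83539338-83540262 (score 83.9, 925 nt), met 2 shTRA2A peaks of 200 and 175 nt. MACF1, a linker of actin and microtubules, had 19 control peaks, 5 of them found, and 8 shTRA2A peaks. ZC3H13, which keeps the m6A writer complex in the nucleus, had 9 control peaks, 4 of them found, and 8 shTRA2A peaks. MEIS2, a homeobox factor, had 4 control peaks, all found, and 6 shTRA2A peaks. The strongest of these, 15:36892029-36894436 (2408 nt, score 35.3, rank 9), met the control peak 15:36891729-36892278 and, with the gene on the minus strand, extended upstream of it. ZBTB1, a zinc finger repressor, had 6 control peaks of up to 425 nt, 4 of them found, and 4 shTRA2A peaks of 50 to 125 nt.

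Among genes with peaks in both lists, a minority had more shTRA2A peaks. Of the 1223 shared genes, 648 had fewer shTRA2A than control peaks, 443 as many and 132 more. The largest excess was in CALD1, the actin-binding protein caldesmon, with 3 control and 7 shTRA2A peaks. Its 3 control peaks were all found, and within 7:134933014-134934063 the shTRA2A list had 6 peaks with scores from 7.93 to 20.6, where the control list had 2, with scores of 46.0 and 32.1. RNF20, a ubiquitin ligase for histone H2B, had 1 control peak of 1879 nt (score 80.1) and 5 shTRA2A peaks, 3 of which lay within it. SRPK2, a kinase of SR proteins, had 2 control and 5 shTRA2A peaks. A span of 4255 nt at 7:105111104-105115358 was identical in both lists (scores 132.8 and 23.0). SRPK2, on the minus strand, ends at 7:105114740, so most of that span lies past the annotated end of the gene. The other control peak, of 1168 nt, held 4 shTRA2A peaks of 50 to 100 nt. GOLIM4, a Golgi membrane protein, went from 2 to 5 peaks, TENM2, a teneurin adhesion protein, from 4 to 7 and PLEC, the cytolinker plectin, from 1 to 5. In CALD1, RNF20, SRPK2 and GOLIM4 part of the excess is a control peak met by several shorter shTRA2A peaks.

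Genes with an shTRA2A peak and no control peak numbered 671 of 1894. Those with most peaks were IRF3 and MFN2 with 4 and BAG6, GBA2, HNRNPA2B1, MYBBP1A, NUP210 and PPFIA4 with 3. HNRNPA2B1, an RNA-binding protein linked to m6A reading, had peaks with scores of 17.8, 14.0 and 13.5, ranks 53, 111 and 120, all between 7:26193274 and 7:26196407. The peaks of MFN2, a mitochondrial fusion GTPase, had scores of 7.57 to 9.17. The 4 peaks assigned to IRF3, an interferon regulatory transcription factor, lay 2 on each strand at 19:49663859-49665541. The table gives no strand for IRF3, so which of these belong to the gene on the other strand there could not be read. BAG6, a chaperone, MYBBP1A, a nucleolar protein, NUP210, a nuclear pore subunit, GBA2, a glucosylceramidase, and PPFIA4, a liprin, had scores of 7.49 to 8.74.

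**Figure D4:**
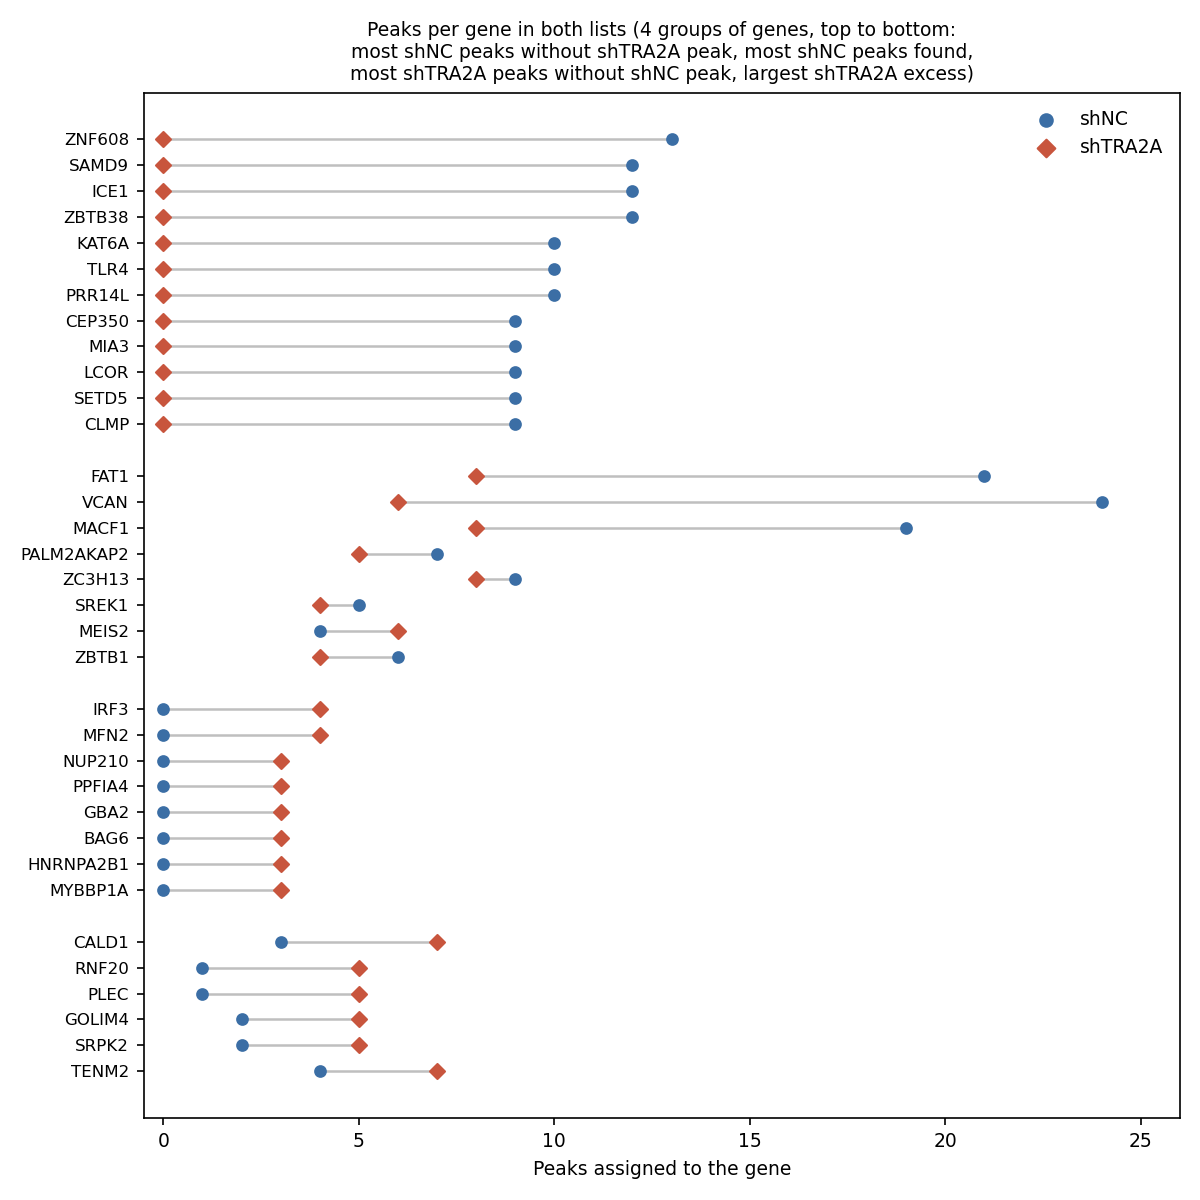
Peaks assigned to each gene in shNC (blue circles) and shTRA2A (red diamonds), joined by a line, for the 4 groups of genes named in the text from top to bottom. ZNF608 has 13 shNC peaks and 0 shTRA2A peaks, FAT1 has 21 and 8, MFN2 has 0 and 4, and CALD1 has 3 and 7. The groups were chosen by these counts.

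Several strong control peaks had no shTRA2A peak within 1000 nt on their strand. Ranked by score among regular peaks over 75 nt, the first was in MAP3K4, a stress-activated kinase, at 6:161048688-161049512 (825 nt, score 135.1, rank 21). MAP3K4 was not empty in shTRA2A: a span of 2473 nt at 6:161112744-161115216 had the same limits in both lists, with scores of 19.2 and 9.88. The next were in NCOA6, a nuclear receptor coactivator, N4BP2L2, FILIP1L, DIO2, the activating thyroid hormone deiodinase, TMCC1, SAMD9 and SLFN12, a Schlafen family member, with scores from 118.9 down to 86.8. The NCOA6 peak was on the plus strand, while the other control peaks assigned to NCOA6 were on the minus strand, with scores of 8.80 to 15.8. No strand is given for that gene, so the plus-strand peak may not belong to it. The 8 control peaks of DIO2 lay over 14:80197976-80215996 with scores of 12.7 to 94.7, and the gene had no shTRA2A peak.

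The genes of the study's title and its targets are given whatever their values. TRA2A had no control peak and 1 shTRA2A peak of 50 nt at 7:23531618-23531667 (score 7.57), and TRA2B and METTL3 had no peak in either list. EGFR, the epidermal growth factor receptor, had 6 control peaks at 7:55205264-55206413, and 1 of them met the single shTRA2A peak. Of the IFIT genes, interferon-induced RNA-binding proteins, IFIT2 had 5 control peaks, IFIT5 1 and IFIT1 2, and none was found. The IFIT5 peak had a score of 161.8, rank 10 of 9206, and the nearest shTRA2A peak of its strand lay 13820 nt away. At 1175 nt it was too wide for the ranking of regular peaks above. IFIT1 alone had an shTRA2A peak, of 50 nt, which lay 25 nt past its first control peak. IFIT3 had no peak in either list.

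Gene lists were read against 28.1% of all genes with a control peak and against a class share. The class share is the mean, over a list's genes, of the share with an shTRA2A peak among all genes of the same number of control peaks and the same quintile of best control score. It is a description without a test, and the lists were written with earlier results known. The count of genes with a control peak found is given too, since a peak elsewhere in the gene is not the same site. Over all genes that share was 15.5%, and a class share of the same kind is given for some of the lists.

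RNA processing genes stood above their class shares by gene. In the core spliceosome list shTRA2A peaks were in 11 of 15 control peak genes, 73.3% (44.9 to 92.2%) against a class share of 40.2%, and 8 had a control peak found. Besides PRPF38B and PRP4K these included CWC22, which joins the spliceosome to the exon junction complex, with a best control score of 58.5 and shTRA2A score of 10.6. U2SURP, a protein of the U2 particle, had 1 peak in each list (scores 42.9 and 13.6). DDX46, an RNA helicase, had 4 control peaks, 2 of them found. CDC5L, SF3B2 and PRPF3 were among those without an shTRA2A peak. With regular peaks alone the count was 5 of 11, 45.5%, against 23.1% of all control peak genes. SR proteins and SR-like factors, the group of TRA2A itself, had 12 of 19, 63.2% (38.4 to 83.7%), nearer their class share of 52.1%. By site, 8 of the 19 had a control peak found, 42.1%, close to the class share of 41.1%. LUC7L3 had 2 control and 3 shTRA2A peaks, PNN had 3 and 3, and SRSF11 had 4 and 3. SON, a speckle scaffold, had 8 control peaks, none found, and 1 shTRA2A peak. SCAF11 with 6, SCAF8 with 4 and SRPK1 with 3 control peaks had no shTRA2A peak.

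Among hnRNPs and other splicing regulators the count by gene was above its class share and the count by site was close to its own. The shTRA2A list reached 7 of 13 control peak genes, 53.8% (25.1 to 80.8%) against a class share of 34.1%. By site, 3 of the 13 genes had a control peak found, 23.1% against 22.0%. It also reached 7 genes without a control peak, among them HNRNPA2B1, TAF15, CELF1 and HNRNPU. These were 7 of the 14 shTRA2A peak genes of that list, against 671 of 1894 over all genes. HNRNPA1 had 2 control and 3 shTRA2A peaks that did not meet, with best scores of 20.9 and 19.3. The genes with a control peak found were RBM6, HNRNPA3 and TIAL1.

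The m6A machinery lay close to its class share. The shTRA2A list reached 7 of the 17 writers, erasers and readers in the control list, 41.2% (18.4 to 67.1%) against 38.6%, and 4 had a control peak found. Apart from ZC3H13, YTHDC1, the nuclear reader, had 5 control peaks, 2 of them found. VIRMA, the writer scaffold, had 7, of which 2 met a single shTRA2A peak (score 15.6). RBM15B, an RNA-binding adaptor of the writer, had 3 peaks in each list that did not meet. WTAP with 4, YTHDF3 and RBM15 with 3 and METTL14 with 1 control peak had no shTRA2A peak. RNA decay genes had 11 of 24, 45.8% against 39.9%, and 7 with a control peak found. UPF2, a core factor of nonsense-mediated decay, had a best control score of 104.2 and a best shTRA2A score of 16.6. UPF1 and UPF3B had 4 control peaks each and no shTRA2A peak.

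Large structural genes and the extracellular matrix also stood above their class shares by gene. The class share does not match gene length. Coding genes in both lists had a median length of 55.7 kb, against 38.7 kb for control alone. Whether length bears on these counts was not tested. Cytoskeletal linkers and giant scaffolds had 22 of 28, 78.6% (59.0 to 91.7%) against 42.6%, with 14 having a control peak found. GOLGA4, a Golgi tether, had 9 control and 5 shTRA2A peaks, AHNAK, a giant scaffold, 11 and 5, and DST, a plakin, 25 and 6. Matrix and integrin genes had 16 of 25, 64.0% (42.5 to 82.0%) against 34.4%, yet 4 had a control peak found, VCAN, ITGB8, COL4A2 and COL6A3, which is 16.0% against 22.0%. In the other 12 the shTRA2A peak lay elsewhere in the gene, as in COL12A1 with 4 and 2 peaks and COL5A2 with 7 and 1. A further 6 matrix genes, AGRN, COL1A2, ITGA5, LOX, THBS1 and THBS2, had an shTRA2A peak and no control peak. With regular peaks alone the matrix count was 9 of 21, and with both lists limited to their best 50% by score it was 10 of 18. Over all control peak genes the shares under these limits were 23.1% and 24.3%.

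Transcription factor lists gave different counts. SOX, MEIS and other developmental factors had 17 of 28, 60.7% (40.6 to 78.5%) against a class share of 32.4%, and 11 had a control peak found. With both lists limited to their best 50% by score the count was 8 of 22, 36.4%, against 24.3% of all control peak genes. SOX4 had 7 control peaks, 2 of them found, and a best shTRA2A score of 17.9, and SOX2 had 2 control peaks, 1 of them found, and a best shTRA2A score of 15.5. ZEB2, a repressor of epithelial genes, had 1 control and 3 shTRA2A peaks, while ZEB1 had 7 and 1. FOXO1 and MEIS1 had 4 control peaks each and no shTRA2A peak. AP-1, immediate early and MYC factors had 4 of 22, 18.2% (5.19 to 40.3%) against 27.0%, namely JUN, CREB1, KLF7 and MNT, and 2 had a control peak found. MYC, KLF13, BACH1 and NFE2L2, the antioxidant response factor, were among those without an shTRA2A peak. Zinc finger genes named ZNF had 47 of 237, 19.8% (15.0 to 25.5%) against 27.4%. A control peak was found in 23 of the 237, 9.70% against a class share of 13.6%. Of their 588 control peaks 28 were found, 4.76%, against 9.58% of all control peaks. On chromosome 19, home of many ZNF clusters, 5.76% of all control peaks were found, on chromosome 14 14.9% and on chromosome X 15.5%, against 9.58% over all chromosomes. Whether ZNF genes bear on the share of chromosome 19 was not tested.

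Both chromatin lists stood above their class shares by gene, with the class share inside each interval, and not by site for histone methylation. Histone methylation enzymes and readers had 16 of 30, 53.3% (34.3 to 71.7%) against 38.3%. A control peak was found in 6 of the 30 against a class share of 25.9%, and 6 of their 108 control peaks were found, 5.56%. KMT2C and KMT2A, histone H3 methyltransferases, had 11 and 8 control peaks, none found, and 2 and 1 shTRA2A peaks. Chromatin remodellers and acetyltransferases had 21 of 39, 53.8% (37.2 to 69.9%) against 44.9%. A control peak was found in 13 of the 39, 33.3% against 32.3%, and 16 of their 150 control peaks were found, 10.7%. Under the same limit on score the counts by gene were 6 of 20 for histone methylation and 13 of 30 for remodellers. Over all control peak genes the share under that limit was 24.3%. ATRX had 6 control peaks, 3 of them found, and a best shTRA2A score of 25.2, BPTF had 11 and 2 peaks that did not meet, and CHD8 had 8 control peaks and no shTRA2A peak.

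By gene, EGFR, interferon and mitotic lists lay below their class shares and the NF-kB list above, each with a class share inside its interval. EGFR and RAS signalling had 5 of 28, 17.9% (6.06 to 36.9%) against 24.2%, and 3 had a control peak found, EGFR, JUN and TGFA. PIK3R1 with 6 and SOS1 with 4 control peaks had no shTRA2A peak. Interferon-induced genes had 9 of 29, 31.0% (15.3 to 50.8%) against 39.7%. By site the gap was wider, with a control peak found in 3 of the 29, 10.3% against a class share of 28.4%. Of their 77 control peaks 3 were found, 3.90%, in SAMD9L, PARP14 and DTX3L. Mitotic genes had 10 of 32, 31.2% (16.1 to 50.01%) against 36.3%, and 5 with a control peak found, with MKI67 at 17 and 5 peaks, CENPF at 26 and 2 and ASPM at 6 and 0. NF-kB and cytokine genes had 10 of 24, 41.7% (22.1 to 63.4%) against 31.3%, and 7 with a control peak found. TAB2, an adaptor of that pathway, had 11 control peaks, 2 of them found.

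For the remaining lists too the class share lay inside the interval. Cadherins and protocadherins had 6 of 14, 42.9% against 37.6%, and 5 with a control peak found. Among these were PCDH10 with 3 control peaks, 2 of them found, and CDH11 with 4, 1 of them found.

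Pathway lists with few members gave wide intervals. Hippo genes had 6 of 17, 35.3% against 34.6%, and 3 with a control peak found, with CCN2, a matricellular target of that pathway, at 1 control and 2 shTRA2A peaks and WWC2 at 5 and 0. Notch genes had 5 of 11, 45.5% against 36.7%, and 4 with a control peak found. In that list SPEN, a corepressor, had 15 control peaks, 3 of them found. Wnt genes had 6 of 15 (interval 16.3 to 67.7%) against 29.9%, but 2 with a control peak found, 13.3% against 17.3%. BCL9L, a coactivator of beta-catenin, had 3 control and 4 shTRA2A peaks that did not meet, and the receptor gene FZD6 had 5 control peaks and no shTRA2A peak. TGF-beta and BMP genes had 5 of 18, 27.8% against 32.7%, and 2 with a control peak found. SKIL, a feedback repressor, had 5 control peaks, 1 of them found.

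Genes of trafficking, protein turnover and DNA repair followed. Endocytosis and recycling genes had 8 of 24, 33.3% against 30.7%, and 5 with a control peak found. ITSN2, an endocytic scaffold, had 2 control and 3 shTRA2A peaks. Ubiquitin ligases and deubiquitinases had 15 of 44, 34.1% against 36.3%, with 10 having a control peak found. MDM2, the ubiquitin ligase of p53, had 4 control peaks, 1 of them found, and USP47 had 5 and no shTRA2A peak. Replication and repair genes had 11 of 29, 37.9% against 32.7%, and 7 with a control peak found. CLSPN, a checkpoint mediator, had 6 control peaks, 3 of which met its 2 shTRA2A peaks (best score 17.9), while BRCA2 had 5 control peaks and no shTRA2A peak. Autophagy and lysosome genes had 4 of 13, 30.8% against 23.1%, but 1 with a control peak found, 7.69% against 10.5%. Genes of endoplasmic reticulum stress and folding had 5 of 15, 33.3% against 30.5%, and 3 with a control peak found. Apoptosis and p53 target genes had 4 of 14, 28.6% against 37.1%, and 2 with a control peak found. MCL1, a survival factor, had 2 peaks in each list.

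Translation factors and ribosomal proteins had 9 of 24, 37.5% against 32.0%, and 7 with a control peak found. PRRC2C had 16 control peaks, 3 of them found. Lipid and cholesterol genes had 2 of 11, 18.2% against 21.0%, and 0 of their 14 control peaks were found. In oxidative phosphorylation and glycolysis 4 genes had a control peak and 1 of these, PFKFB3, an shTRA2A peak, with no control peak found. Long non-coding RNAs had 7 of 11, 63.6% (30.8 to 89.1%) against 42.2%, the widest gap of the lists from cadherins on, and 5 had a control peak found. TUG1 had 12 control peaks, 2 of them found, and NORAD, a decoy for PUMILIO proteins, had 4, 1 of them found. MEG3 had 2 control and 3 shTRA2A peaks.

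**Figure D5:**
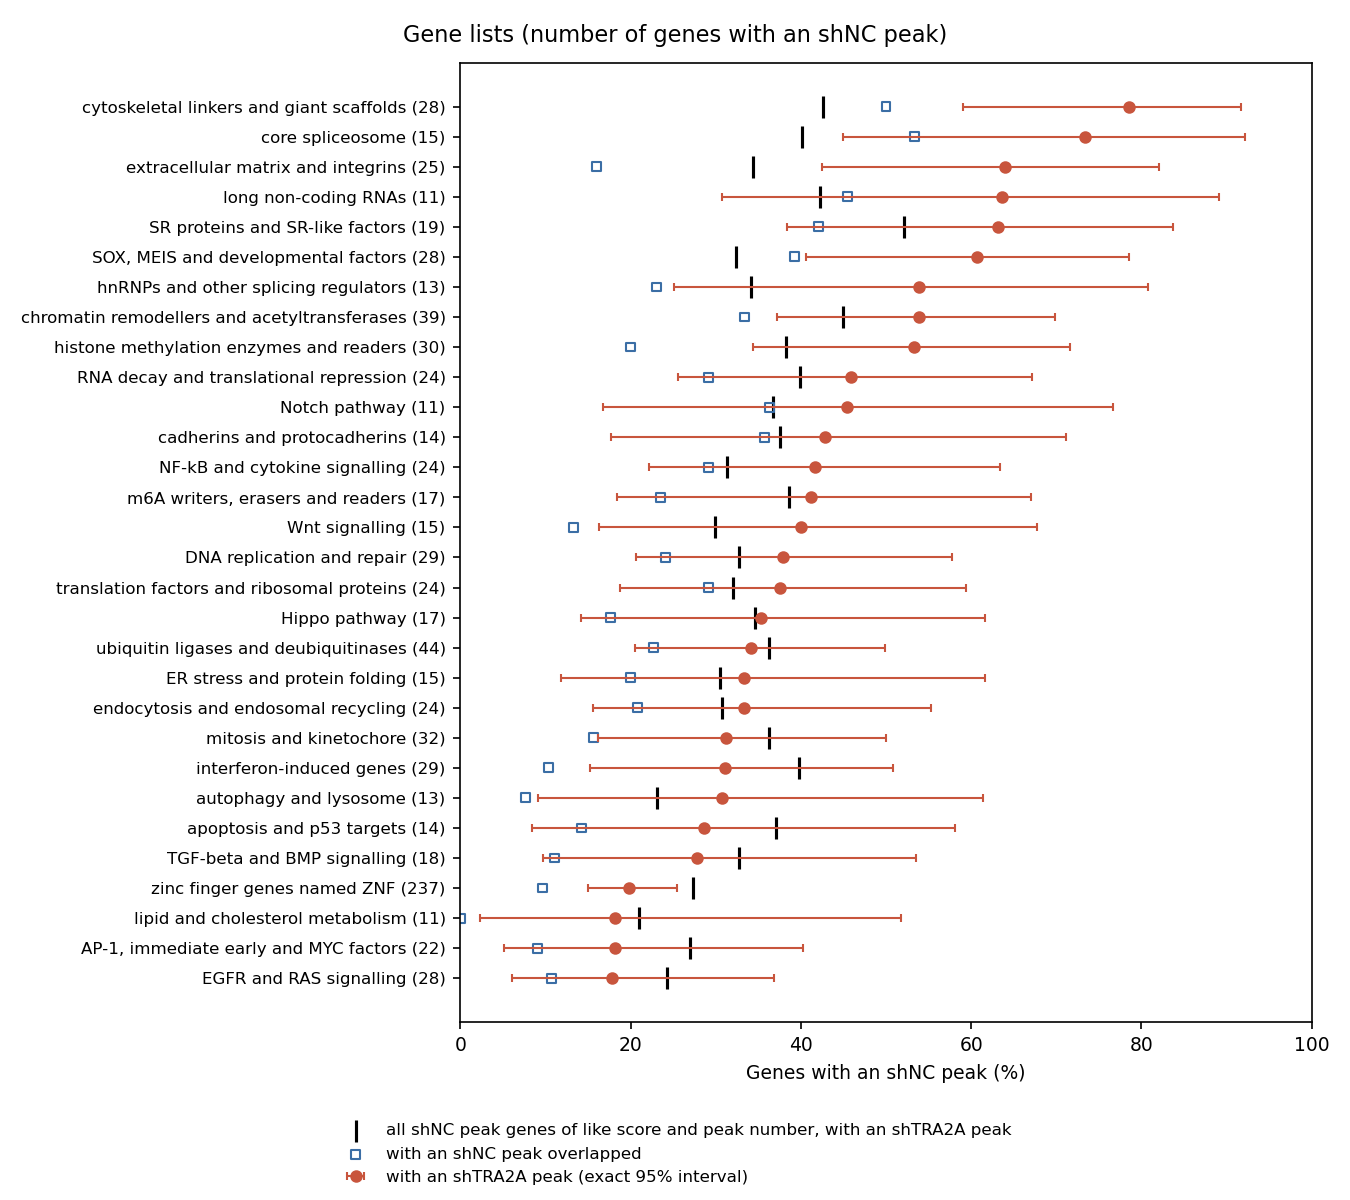
Share of genes with an shNC peak that also had an shTRA2A peak (red, with exact 95% intervals) or a control peak overlapped (blue squares) per gene list described here with 10 or more such genes, with the class share of all genes of like score and peak number as a black bar. Scaffolds (78.6%), core spliceosome (73.3%) and matrix (64.0%) lie highest, EGFR and RAS signalling (17.9%) lowest, and the matrix square stands at 16.0%.

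Within a gene, the strongest control peak was found most often. In the 1029 genes with 3 or more control peaks, the strongest was found in 20.8% (18.4 to 23.4%), the second in 10.8%, the third in 6.61% and lower ones in 5.83%. Coding genes with peaks in both lists were longer, with a median of 55.7 kb against 38.7 kb for control alone, 37.3 kb for shTRA2A alone and 24.1 kb for all coding genes. The window from 250 bases before to 50 after the gene start, known for 80.4 to 83.9% of the genes, had a median GC content of 66.7% in genes with an shTRA2A peak alone and 64.3% in both other classes. Over all coding genes that median was 62.3%, with the window known for 79.0%. ZNF genes made up 3.98% of coding genes in both lists, 6.50% of those in control alone and 1.94% of those in shTRA2A alone, against 2.58% of all coding genes.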

How the data were processed

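Peak lists of shNC and shTRA2A U-251 MG cells were compared. Reads were processed with HISAT2 2.2.1, featureCounts 2.0.1 and SAMtools on GRCh38, per the submitters' processing notes. Neither the peak caller with its thresholds nor the depth is given in the sources used here. The authors deposited each list with a score per peak in column 5, of unstated scale. The list of another name that equals the shTRA2A list was not used (1 value column).

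Overlaps, gaps and shares were computed with scipy 1.17.1, pandas 2.3.3 and numpy 2.4.6 under Python 3.11.15, and drawn with matplotlib 3.10.9. The overlap code recovered 100% of the overlaps planted among 2000 simulated peaks and differed from bedtools 2.31.1 at 0 control peaks. Ties in score are common (2886 shNC and 1778 shTRA2A peaks), so ranks depend in part on their order.

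A peak was given the RefSeq coding gene (GRCh38.p14) on its strand that it touches, or otherwise a long non-coding gene. Of several, the shortest that holds the whole peak was taken. Genes whose strand the table does not give took peaks of either strand. Of the peaks, 96.2% in shNC and 95.7% in shTRA2A were assigned. Of peaks in 1 gene, 2.79% and 2.82% lay on its opposite strand. Use of strand was chosen after the data were seen. All 1872 symbols of the 38 lists matched, 4 through synonyms.

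The members and lists were chosen with earlier results of these data known. Named genes are TRA2A, TRA2B, METTL3, EGFR and IFIT genes, the 12 best shared regular pairs, the 12 genes with most control peaks and no shTRA2A peak, the 8 with most control peaks found, the 8 with most shTRA2A and no control peaks, the 6 with the largest excess, the 8 strongest lone control peaks, and up to 4 per list. A gene list and some members of other lists are not reported here. Other members of lists were named after their values were seen. Alternatives covered the overlap rule, strand, merging, score, width and gene assignment.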

Additional observations from a re-analysis of the deposited data

How the results depend on the processing

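In the better-scoring 50% of each list, 554 of 4603 control peaks (12.04%) were found and 570 of 1368 shTRA2A peaks (41.7%) were on a control peak, and 617 genes were shared, 24.3% of 2540 and 61.1% of 1010. With the control list limited to the length of the shTRA2A list, 719 genes were shared, 42.7% of 1683 and 38.0% of 1894, and 606 of 2736 control peaks (22.1%) were found. Under the other rules for peaks, control peaks found numbered 605 to 916 and shTRA2A peaks on a control peak 630 to 939, within 1.5 times of 882 and 926. Shared genes numbered 850 to 1225. The rule without gene strand was added after the data were seen. Of 33 gene list counts with a control peak, 24 moved by over 1.5 times when overlap of a control peak was required, 21 in the better-scoring 50% and 9 with regular peaks alone. The count over all control peak genes moved too, from 1223 of 4360 to 676 of 4360 under overlap. It was 617 of 2540 in the better-scoring 50%. With regular peaks alone it was 850 of 3676, within 1.5 times of 1223. Under overlap or in the better-scoring 50%, a list count that moves is therefore not by itself a trait of that list. Under overlap, 11 core spliceosome genes became 8, 16 matrix genes 4 and 47 ZNF genes 23. No paired analysis was possible because each condition has 1 library pair and 1 list.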
